A study of Homo sapiens with 16 samples.

Results

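The genes NSD2, FGFR3, LETM1, TACC3, SLBP, TMEM129 and NELFA lie side by side on the short arm of chromosome 4, at 4p16, where the t(4;14) translocation of multiple myeloma breaks the chromosome. They were taken as a set of 7 of the 19974 protein-coding genes of the RefSeq annotation of GRCh38 by their place next to that breakpoint, and every peak within a gene record and the 10 kb around it was assigned to the gene. H3K4me3 and H3K27me3 were measured by ChIPmentation, an immunoprecipitation of chromatin in which a transposase adds the sequencing adaptors, in TKO cells. TKO is labelled as a KMS-11 plasma cell line of genotype WHSC1(+/-), WHSC1 being the older name of NSD2, and all groups share that background. The 4 forms were TKO cells with no further label, TKO cells labelled WT for wild type NSD2, and TKO cells labelled D1240A or F1295A for NSD2 with that substitution. The 16 samples comprised, for each form, 2 of H3K27me3, 1 of H3K4me3 and 1 of IgG, and the IgG libraries were not analysed here. The data were 8 peak lists, 1 per form and mark. A single H3K27me3 list stands for both replicates, so no difference between forms had a replicate check and no test was run. In such bulk lists, fewer cells with a mark and less of the mark per cell cannot be told apart. The lists held 2083 to 5881 H3K27me3 peaks and 7396 to 8239 H3K4me3 peaks, and the read depth is unknown. How the forms were expressed, and whether a form was 1 clone, is not given in the sources used here.

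NSD2 methylates histone H3 at lysine 36, and in t(4;14) myeloma a copy of the gene comes under immunoglobulin enhancers and is overexpressed. FGFR3, a receptor tyrosine kinase for fibroblast growth factors, lies on the other side of the break and is moved to the partner chromosome, where some of these tumours express it. TKO is known as a KMS-11 derivative in which the translocated NSD2 allele was disrupted. H3K4me3 stands at active and poised promoters, and H3K27me3, the mark of Polycomb repressive complex 2, stands over silent genes. The lists carry no allele, so peaks of the translocated and of the untranslocated chromosome cannot be told apart.

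The plasma cell label was set against marker genes in the same way. IRF4, PRDM1, XBP1, TNFRSF17, MZB1 and JCHAIN had H3K4me3 and no H3K27me3 in their windows in every form. Of 10 plasma cell markers, 8 had H3K4me3 in WT and F1295A, 7 did in D1240A and 6 in TKO, while CD38 had no peak of either mark in any form. H3K27me3 was at 2 of the 10 in TKO and WT and at 1 in D1240A and F1295A. SDC1 had H3K27me3 in all 4 forms. The B cell genes PAX5 and CD22 had H3K27me3 alone in every form, and BCL6 had H3K4me3 in every form. CD14 was the only 1 of 5 T, NK and myeloid genes with H3K4me3.

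H3K4me3 was found at every gene of the set except FGFR3 in all 4 forms. FGFR3 had H3K4me3 in WT and F1295A only, and it was the only gene of the set with H3K27me3 in its record in all 4 forms. F1295A alone had a further peak of both marks inside NSD2, close to the 3′ end of the gene. The map of peaks shows this order along the chromosome.

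**Figure D1:**
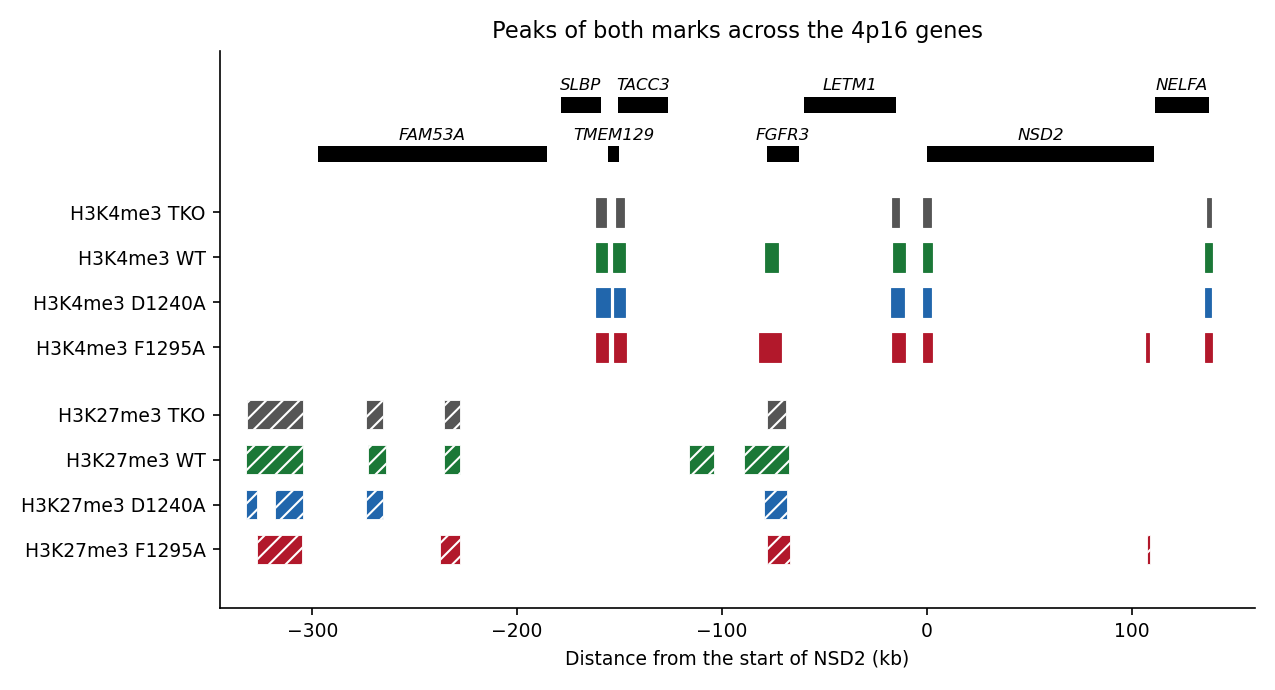
Peaks of H3K4me3 (solid) and H3K27me3 (hatched) in each form, by distance from the start of NSD2 in kb, with gene records as black bars. Peaks too narrow to see are drawn wider than scale, among them the 263 bp peak of F1295A in NSD2. FGFR3 carries H3K27me3 in all 4 forms, and the peaks in the 3′ part of NSD2 appear in F1295A alone.

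The RefSeq promoter table of GRCh38.p14 held 5 of the 7 genes, all but LETM1 and TMEM129. The 250 bases before the start of NSD2 and of FGFR3 are shown because the H3K4me3 results turn on these starts. Capitals mark the GC box (GGGCGG, or CCGCCC on the other strand, overlapping matches joined) and the CCAAT box (CCAAT, or ATTGG on the other strand). Both sequences are on the plus strand, at chr4:1871143-1871392 for NSD2 and chr4:1793043-1793292 for FGFR3.
NSD2: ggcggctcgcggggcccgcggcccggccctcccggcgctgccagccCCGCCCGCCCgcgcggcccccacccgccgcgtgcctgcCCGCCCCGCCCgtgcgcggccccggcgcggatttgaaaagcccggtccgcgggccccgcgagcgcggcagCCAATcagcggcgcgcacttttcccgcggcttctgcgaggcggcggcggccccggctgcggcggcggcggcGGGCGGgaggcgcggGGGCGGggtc
FGFR3: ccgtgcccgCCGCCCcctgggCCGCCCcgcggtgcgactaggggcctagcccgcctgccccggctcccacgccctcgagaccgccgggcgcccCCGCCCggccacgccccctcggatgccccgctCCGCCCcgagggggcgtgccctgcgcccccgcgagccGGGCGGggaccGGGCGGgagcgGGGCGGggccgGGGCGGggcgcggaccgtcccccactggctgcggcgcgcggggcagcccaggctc

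The NSD2 sequence held 50 CpG dinucleotides, the 99.9th percentile of 15812 protein-coding promoters of this length, and the FGFR3 sequence held 40, the 97.8th percentile. The median promoter held 17. G and C made up 86.0% of the NSD2 sequence and 86.8% of the FGFR3 sequence, against a median of 62.4%. SLBP had 35 CpG, NELFA 34 and TACC3 22 in the same window. A GC box was matched 6 times at NSD2 and 8 times at FGFR3, 2 times at SLBP and 0 times at TACC3 and NELFA. Of all promoters, 55.98% held at least 1 match and 19.7% held 3 or more. The CCAAT box was matched at NSD2 alone among the 5 genes, 1 time, and in 34.4% of all promoters. The TATA box (TATAAA, or TTTATA on the other strand) was matched at none of the 5 and in 9.25% of all promoters. These matches describe the letters only.

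The number of genes with H3K4me3 in their windows was 6 of 7 in TKO and D1240A and 7 of 7 in WT and F1295A. Across all protein-coding genes the share with H3K4me3 in this window was 47.5% for TKO, 51.4% for WT, 49.2% for D1240A and 52.1% for F1295A. An exact (Clopper-Pearson) 95% interval for 6 of 7 runs from 42.1% to 99.6%, and at most it covers counting error. It takes the genes as independent draws, which genes fixed by position are not. Neighbouring windows share peaks, so the 7 genes rest on 5 separate H3K4me3 peaks in TKO and D1240A, 6 in WT and 7 in F1295A. Together the windows span 308.1 kb, of which H3K4me3 covered 18.2 kb in TKO, 31.5 kb in WT, 24.7 kb in D1240A and 37.1 kb in F1295A.

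**Figure D2:**
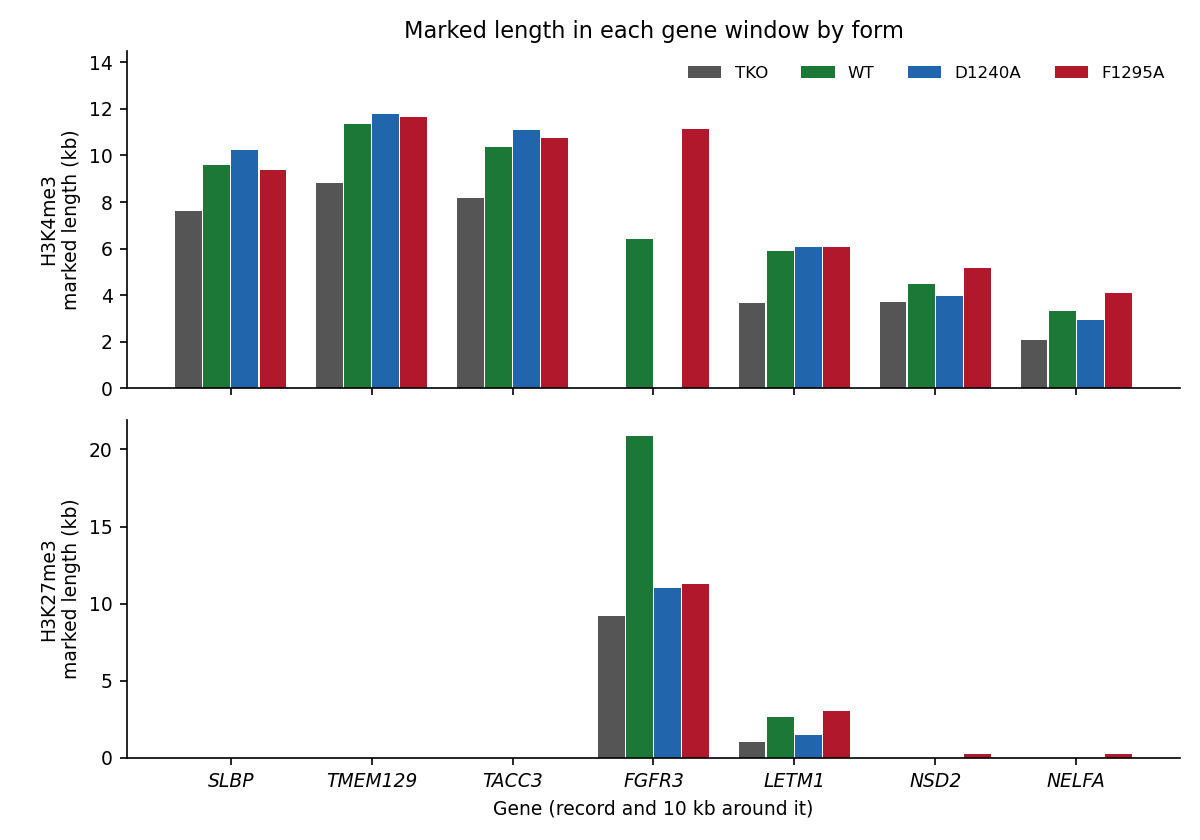
Marked length in kb of H3K4me3 (top) and H3K27me3 (bottom) in the record of each gene and the 10 kb around it, with 1 bar per form and no replicate. The H3K4me3 bars of FGFR3 stand in WT (6.43 kb) and F1295A (11.2 kb) alone, and SLBP, TMEM129 and TACC3 share peaks.

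SLBP, which encodes the protein that binds the stem-loop of histone mRNAs, had a peak over its start on the minus strand (record chr4:1692731-1712319). The peak was 4.77 kb wide in TKO, 5.43 kb in WT, 6.81 kb in D1240A and 5.96 kb in F1295A. In D1240A it reached into the record of TMEM129, a gene for a ubiquitin ligase of the endoplasmic reticulum (chr4:1715952-1721323). The highest signal was 216 in TKO and 502 in WT, and 481 in D1240A and 596 in F1295A, close to the median peak of these lists (215, 430, 413 and 494). By total signal, the coverage summed over a peak, the SLBP peak stood between the 81.5th and the 86.6th percentile of its list.

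The next peak covered the high end of TMEM129 and the start of TACC3 on the plus strand (chr4:1720631-1745171). TACC3 encodes a spindle protein that stabilises microtubules in mitosis. This peak was 4.05 kb wide in TKO, 5.93 kb in WT, 4.98 kb in D1240A and 5.67 kb in F1295A, and its highest signal reached 218 for TKO, 442 for WT, 424 for D1240A and 610 for F1295A. Its total signal stood between the 82.7th and the 88.3rd percentile. It was the strongest start peak of the neighbourhood by total signal in TKO, WT and F1295A, while in D1240A the SLBP peak was stronger (84.7th against 82.7th percentile). The records of TMEM129 and TACC3 overlap, so the peak cannot be given to either gene.

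LETM1, which encodes a protein of the inner mitochondrial membrane that handles ion exchange, had a peak at the high end of its record (chr4:1811479-1856156). It was 3.65 kb wide in TKO, 5.88 kb in WT, 6.07 kb in D1240A and 6.05 kb in F1295A. The highest signal within the LETM1 peak, 105 for TKO, 216 for WT, 188 for D1240A and 316 for F1295A, stood at the 3.05th to the 17.0th percentile of its list, although the total signal stood at the 45.7th to the 57.9th. NELFA, a subunit of the factor that holds RNA polymerase II in pause near promoters, had a peak over its start on the minus strand (chr4:1982723-2008974). It was 2.08 kb wide in TKO, 3.30 kb in WT, 2.94 kb in D1240A and 3.06 kb in F1295A, the narrowest start peak of the set in each form. Its highest signal was 213 for TKO, 332 for WT, 360 for D1240A and 404 for F1295A, at the 29.1th to the 49.3rd percentile.

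All 5 peaks found in every form were narrowest in TKO. The whole TKO list was narrower too, with a median H3K4me3 width of 2704.5 bp against 3293 bp in WT, 3352.5 bp in D1240A and 3701 bp in F1295A. Set against the median of its own list, the NSD2 start peak was 1.37 times as wide for TKO, 1.36 for WT, 1.18 for D1240A and 1.12 for F1295A, so on this scale it was not narrower in TKO. On that scale 2 of the 5 peaks were still narrowest in TKO. They were the LETM1 peak, at 1.35 times the median in TKO against 1.79 in WT, 1.81 in D1240A and 1.63 in F1295A, and the NELFA peak, at 0.769 against 1.00, 0.876 and 0.825 in the same order. The SLBP peak was narrowest in F1295A (1.61 against 1.76 in TKO), and the peak of TMEM129 and TACC3 in D1240A (1.485 against 1.496 in TKO).

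NSD2 itself (plus strand, chr4:1871393-1982192, a record of 110.8 kb) had H3K4me3 over its start in all 4 forms. The peak was 3.70 kb wide in TKO, 4.49 kb in WT, 3.95 kb in D1240A and 4.14 kb in F1295A. Its upstream edge fell within 8 bp in the 4 lists, at 1869613 to 1869621, while the downstream edge ranged over 789 bp. The highest signal lay 747 to 869 bp downstream of the annotated start. The highest signal of the peak reached 81 for TKO, 162 for WT, 161 for D1240A and 185 for F1295A, and in each list this was 0.374 to 0.390 of the median peak. That placed the NSD2 start at the 1.07th to the 1.83rd percentile by highest signal, and at the 14.0th to the 26.1th by total signal. The H3K4me3 peak of NSD2 was thus among the lowest in height in every list, TKO included. At SLBP the highest signal stood at the 50.5th percentile or above in each list.

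**Figure D3:**
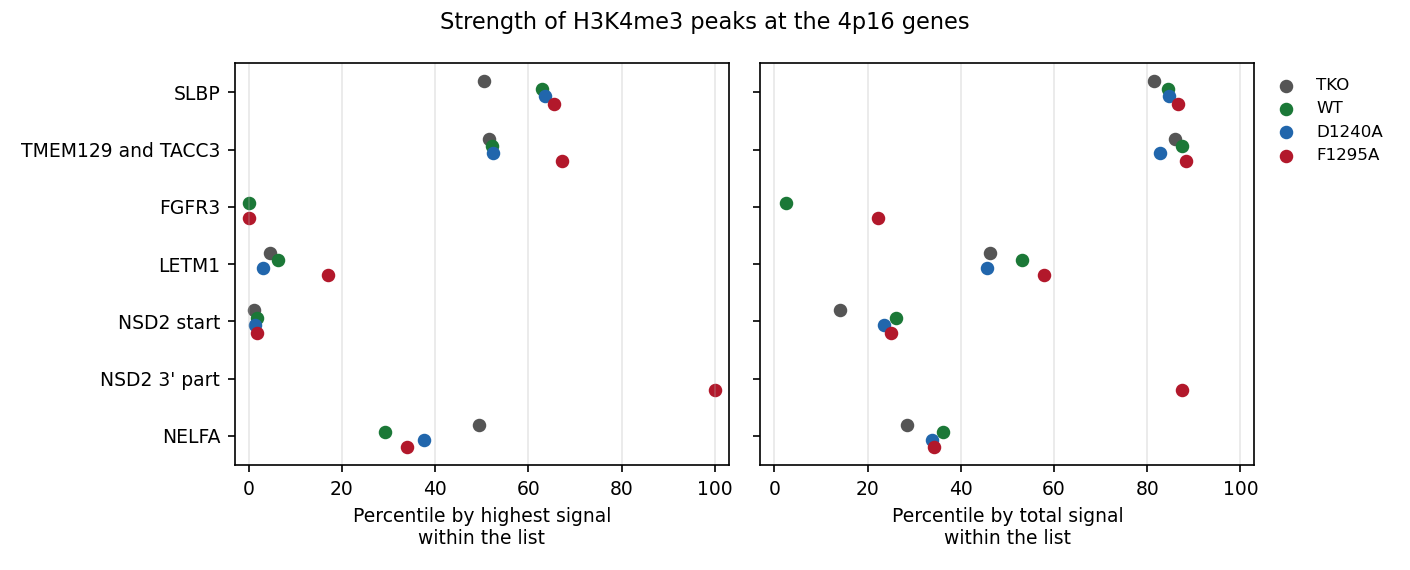
Percentile of each H3K4me3 peak among all peaks of its own list, by highest signal (left) and total signal (right), with 1 point per form. By highest signal the NSD2 start stays below the 2nd percentile in all 4 lists and FGFR3 lies near 0, while the NSD2 3′ part of F1295A lies at 100.

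In F1295A a second H3K4me3 peak lay inside NSD2 at chr4:1978176-1979218, 106.8 kb downstream of the start and 2.97 kb before the end of the record. It was 1043 bp wide, the narrowest peak of the list. Its highest signal was 4374, the highest of all 8239 peaks and 1.27 times the next, 3438. The start peak of NSD2 in the same list reached 185, so the 3′ peak was 23.6 times as high. Its mean signal per base was 896, also the first rank, and 7.86 times the list median. The maximum fell on 14 bp within the peak. SCARNA22, a small RNA gene inside NSD2, lies 3.42 kb upstream of it, and whether the interval is exonic or intronic is not stated here because no exon annotation was used.

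The H3K27me3 list of F1295A had a peak at the same place, chr4:1978747-1979009, wholly inside the H3K4me3 peak and including its maximum. It was 263 bp wide where the median H3K27me3 peak of the list was 12792 bp. Its highest signal was 1279, rank 5 of 2083, against a list median of 96 and a value of 65.5 at FGFR3. Its total signal divided by its width was 1156, rank 1 and 29.1 times the list median. For H3K27me3 a total need not be the coverage of the listed bases, so this ratio may not be a signal per base. Of the 3 peaks in this list narrower than 600 bp, a limit chosen after the values were seen, the others reached at most 69.5.

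None of the other 6 lists had a peak in this interval. The F1295A H3K4me3 list held 240 peaks with no overlap in another form, and the NSD2 peak was 8.71 times as high as the next of them (502). Among 9 such peaks in the F1295A H3K27me3 list it was 7.15 times as high as the next (179). The same 263 bp were thus called with both antibodies in F1295A and with neither in the other forms. Whether the IgG library of F1295A has signal there was not tested. Nor was it tested whether the reads come from the gene itself or from any NSD2 sequence added to the cells. The interval lies within 10 kb of NELFA, so that gene counts as having H3K27me3 in F1295A through this peak alone.

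**Figure D4:**
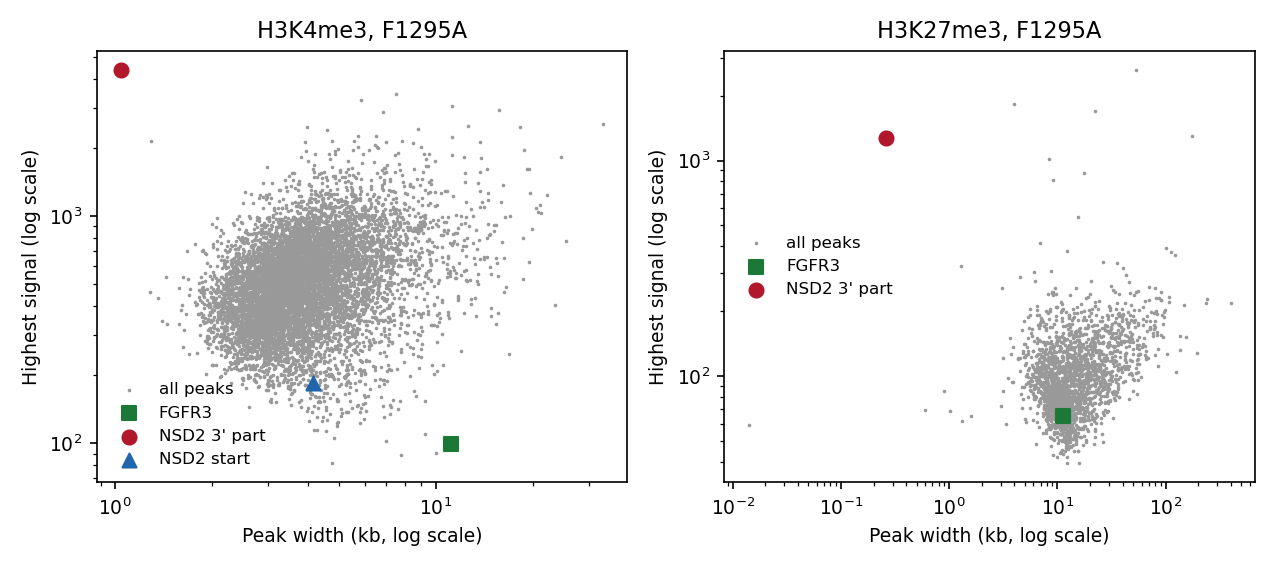
Highest signal against width in kb (both log scales) for every peak of the F1295A lists, H3K4me3 on the left and H3K27me3 on the right, with each grey point 1 peak. The peak in the 3′ part of NSD2 stands at the upper left of both panels, at 1.043 kb and 4374 for H3K4me3 and at 0.263 kb and 1279 for H3K27me3.

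FGFR3 (plus strand, chr4:1793293-1808867) carried both marks in WT and F1295A and H3K27me3 alone in TKO and D1240A. Its H3K4me3 peak spanned chr4:1792247-1798673 in WT (6.43 kb) and chr4:1789244-1800396 in F1295A (11.2 kb), and there was none in TKO or D1240A. These peaks were wide and low. The highest signal was 75 in WT, rank 8139 of 8140, and 99 in F1295A, rank 8236 of 8239. By total signal they stood at the 2.49th and the 22.3rd percentile, and the WT total of 146874 was close to the lowest total of that list, 138989. The highest signal lay 927 to 1116 bp downstream of the annotated start in both.

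Across all genes, 4.21% had H3K4me3 in the window in WT and none in TKO, and 2.44% in WT and none in D1240A. For F1295A the shares were 4.87% against TKO and 3.15% against D1240A. FGFR3 was the 1 gene of 7 that differed in each of these comparisons, which share lists. In the remaining directions 0 of the 7 genes differed. There the share of all genes was 0.295% for TKO without WT, 0.751% for TKO without D1240A and 0.2% for TKO without F1295A. It was 0.726% for WT without F1295A and 1.48% for F1295A without WT. For D1240A it was 2.46% without TKO, 0.24% without WT and 0.195% without F1295A. With only the 7396 strongest peaks of each list, the length of the TKO list, the WT peak at FGFR3 was no longer in the list and the F1295A peak still was. With the stronger 50% of each list neither was.

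H3K27me3 over FGFR3 began at the gene start in TKO and F1295A, 32 bp and 30 bp before the annotated first base. In D1240A it began 1296 bp before it, and in WT 11019 bp before it. The downstream edges were closer together, at 9.19 kb into the gene in TKO, 9.69 kb in D1240A, 10.8 kb in WT and 11.2 kb in F1295A. The mark thus covered 59.0% of the FGFR3 record in TKO, 62.2% in D1240A, 69.6% in WT and 72.2% in F1295A, and it left the 3′ end of the gene unmarked in every form. The peak was 9.22 kb wide in TKO, 21.9 kb in WT, 11.0 kb in D1240A and 11.3 kb in F1295A.

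The WT peak was the widest of the 4, and the difference lay on the upstream side. WT also had a separate H3K27me3 peak of 12.1 kb between TACC3 and FGFR3, at chr4:1755356-1767418, which no other list had. By total signal the FGFR3 peak stood at the 61.6th percentile for TKO, the 79.8th for WT, the 35.3rd for D1240A and the 28.2th for F1295A, of lists that differ in length. An H3K27me3 total need not be the coverage of the listed bases, so this ranking and the strongest peaks chosen by it are uncertain. With the 2083 strongest peaks of each list, FGFR3 had H3K27me3 in WT, D1240A and F1295A and not in TKO. With the stronger 50% of each list it was kept in TKO and WT and not in D1240A or F1295A.

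**Figure D5:**
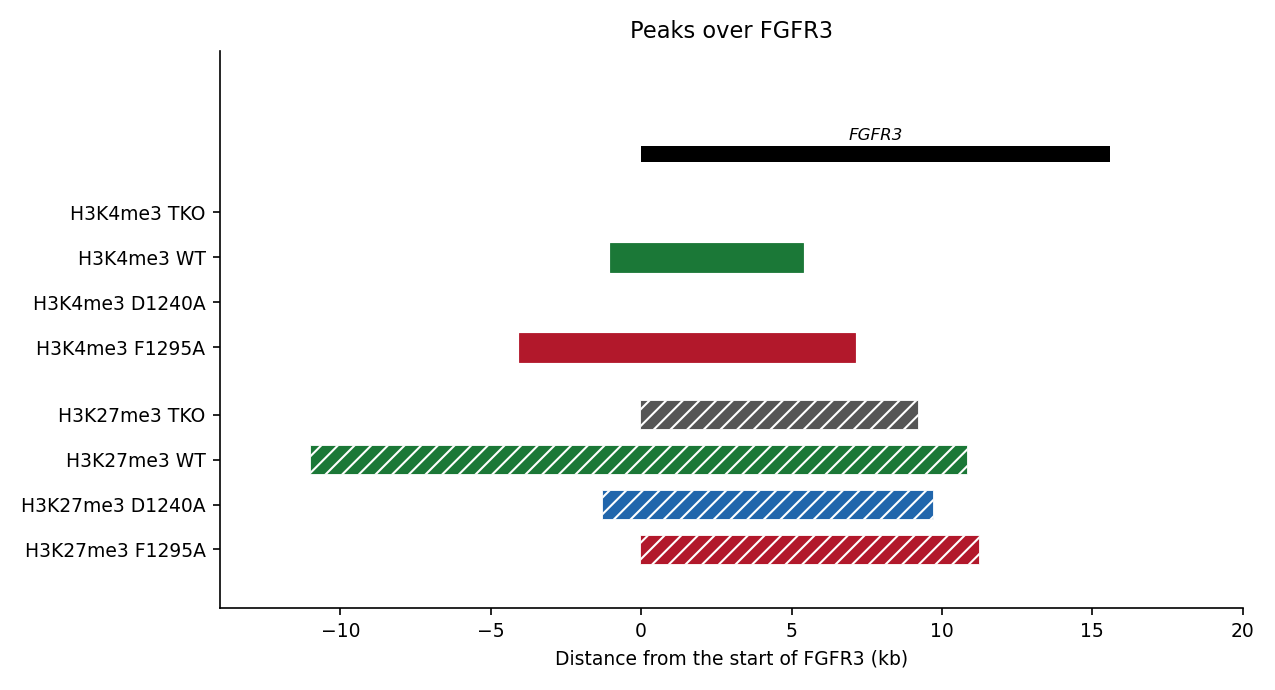
H3K4me3 (solid) and H3K27me3 (hatched) peaks over FGFR3 by form, in kb from the annotated start, with the gene record as a black bar. The H3K27me3 edge lies at the start in TKO and F1295A and 11.0 kb upstream in WT, and H3K4me3 is present in WT and F1295A only.

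Where FGFR3 had both marks their peaks overlapped. The H3K4me3 peak of WT lay wholly inside the H3K27me3 peak (6.43 kb), and in F1295A 7.13 kb, or 63.96% of the H3K4me3 bases in the window, lay under both. Genome-wide, 158 H3K4me3 peaks touched an H3K27me3 peak in WT (1.94%) and 99 did in F1295A (1.20%). Both marks in the window, touching or not, were found at 1 of the 7 genes in TKO and D1240A (LETM1), 2 in WT and 4 in F1295A. Of all genes 6.63% had both in TKO, 6.82% had both in WT, 3.48% had both in D1240A and 4.14% had both in F1295A. Peaks of cell populations do not tell whether both marks stand on the same allele or in the same cells.

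H3K27me3 was in the windows of FGFR3 and LETM1 in all 4 forms, and of NSD2 and NELFA in F1295A, so 2 of 7 genes in TKO, WT and D1240A and 4 of 7 in F1295A. Across all genes the share with H3K27me3 in this window was 18.4% for TKO, 16.1% for WT, 9.36% for D1240A and 9.93% for F1295A. In LETM1 the marked bases, 1.00 to 3.06 kb, were the end of the FGFR3 peak, and 0 bases of its record were marked. SLBP, TMEM129 and TACC3 had no H3K27me3 in any form. Of all genes, 0.235% had H3K27me3 in F1295A and not TKO, 0.235% in F1295A and not WT, and 1.47% in F1295A and not D1240A, where 2 of the 7 genes did through the single narrow peak described above. In every other direction 0 of 7 genes differed. The share of all genes was then 4.36% for TKO without WT, 9.2% for TKO without D1240A and 8.72% for TKO without F1295A. It was 2.04% for WT without TKO, 6.89% for WT without D1240A and 6.41% for WT without F1295A. For D1240A it was 0.14% without TKO, 0.145% without WT and 0.901% without F1295A. Without the narrow F1295A peak, or with peaks of at least 1 kb only, no gene of the set differed between forms in H3K27me3.

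A search within 500 kb of the set found 17 further protein-coding genes. H3K4me3 was in the windows of 10 of them in every form, where 47.5% to 52.1% of all genes had it, depending on the form. Some of these windows share a peak, as those of POLN and HAUS3 do, and LOC124900839 shares the NELFA start peak. In TKO, ZFYVE28 and CFAP99 counted only through the peaks at MXD4 and RNF4. The peak over their own records (chr4:2417484-2419908 in WT) was in WT, D1240A and F1295A and not in TKO. The 10 genes included CTBP1, a transcriptional corepressor (4.23 to 5.87 kb), MAEA, a ubiquitin ligase subunit, and UVSSA, a factor of transcription-coupled repair. MXD4, a partner of MAX, and RNF4, a ligase for SUMO-modified proteins, were also among them. FAM53A, next to SLBP, had no H3K4me3 and had H3K27me3 in all 4 forms, 18.8 kb in TKO and WT, 11.4 kb in D1240A and 12.4 kb in F1295A. TKO and WT had 2 peaks inside the FAM53A record, D1240A had only the one at chr4:1597580-1605986 and F1295A only the one at chr4:1633517-1643475. POLN, a DNA polymerase gene, had 4.77 kb of H3K27me3 in TKO only. SPON2, NKX1-1, NICOL1 and NAT8L had no peak of either mark.

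Related genes elsewhere in the genome were read in the same window. The H3K36 methyltransferase genes NSD1, NSD3, SETD2 and ASH1L all had H3K4me3 and no H3K27me3 in every form, as NSD2 did outside F1295A. Of the other fibroblast growth factor receptor genes, FGFR2 had H3K4me3 only, and FGFR4 had neither mark. FGFR1 had no H3K4me3 in its window in any form and H3K27me3 in TKO (39.8 kb), WT (5.73 kb) and D1240A (5.82 kb). FGFRL1, a receptor without a kinase domain that also lies at 4p16, had H3K4me3 in WT, D1240A and F1295A and not TKO, and H3K27me3 in TKO and WT.

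Of 11 genes for adaptors, inhibitors and targets of these receptors, H3K4me3 was at 8 in TKO and D1240A and at 9 in WT and F1295A. H3K27me3 was at 4 in TKO, 3 in WT and 0 in both mutants. Both mutants also had this mark at fewer genes genome-wide (D1240A 9.36%, F1295A 9.93%, against TKO 18.4% and WT 16.1%). Their H3K27me3 lists were shorter, with 2188 (D1240A) and 2083 (F1295A) peaks against 5881 (TKO) and 3790 (WT). Whether these 11 genes depart from that background was not tested. ETV4, a transcription factor gene induced by this signalling, had H3K4me3 in WT (3.06 kb) and F1295A (3.50 kb) and in neither other form, the same 4 calls as FGFR3, but its H3K27me3 was in TKO and WT only. The feedback genes SPRY1, SPRY2 and DUSP6 had H3K4me3 alone in every form, and SPRY4 had neither mark. NELFB, NELFCD and NELFE, the other NELF subunit genes, had H3K4me3 in every form, and the window of NELFE also held H3K27me3 in each (6.17 to 7.89 kb).

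Genes with the same 8 calls as FGFR3 numbered 14, or 0.0701% of all genes. The nearest by marked share of the window, measured as the Euclidean distance over the 8 lists in percentage points, were YPEL4 (31.4), SPR (35.7), EHD2 (40.5), MAPK8IP1 (46.8) and SDC1 (47.3). SDC1 encodes CD138, the surface protein by which plasma cells are sorted, and EHD2 a membrane-shaping protein of caveolae. SDC1 had 2.80 kb of H3K4me3 in WT and 3.20 kb in F1295A, and 8.28 to 13.3 kb of H3K27me3 in all forms. NSD2 shared its 8 calls with 5 other genes. NELFA was 1 of them, through the shared F1295A peak. The others, outside 4p16, were PEX14, a peroxisomal import gene (distance 1.62), XYLT2 (20.3), FAM72D (35.3), which has near-identical copies and is therefore uncertain, and STAC3 (87.2). PEX14 had 0.568 kb of H3K27me3 in F1295A alone.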

How the data were processed

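Peak lists were used as deposited, with the highest and total signal of each peak from the authors' peak caller, on a scale that is not stated. The total was read as the coverage summed over the bases of a peak. For H3K27me3 this cannot hold for every peak. The D1240A peak at chr4:1538996-1544307 had a total of 675644 over 5312 bp, or 127 per base, with a highest signal of 96.5. H3K27me3 ranks by total, and the settings that keep the strongest H3K27me3 peaks, are therefore uncertain. The submitters' processing notes list SEACR 1.3, Bowtie2 2.4.5, Trimmomatic 0.36, FastQC 0.11.4 and GRCh38, but no mode, control or threshold. How the H3K27me3 replicates were combined is not given in the sources used here, and depth is unknown. Signal was compared between peaks of the same list only, by rank, percentile or ratio.

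Gene records came from RefSeq GRCh38.p14 (chromosomes 1 to 22 and X), and starts and strands from its promoter table. A gene had a mark where at least 1 bp of a peak lay in its record or the 10 kb around it. Scripts ran in Python 3.11.15 with pandas 2.3.3, numpy 2.4.6, matplotlib 3.10.9 and scipy 1.17.1. The overlap step was tested on simulated data. The genes named were the 7 members, protein-coding genes within 500 kb, a list of 27 related genes, 20 cell type markers (1 of them not reported here), and up to 5 genes with the same calls nearest to NSD2 and to FGFR3. Members and lists were chosen with earlier results of these data known. Alternatives changed the window, the peaks kept or the overlap.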

Additional observations from a re-analysis of the deposited data

How the results depend on the processing

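Of 212 values of the whole set under alternative settings, 156 stayed within 1.5 times the reported value and 56 did not. Using the gene record alone gave H3K27me3 in 1 gene in TKO, WT and D1240A and 2 in F1295A, with 1 gene differing between F1295A and each other form, and both marks in 0 genes in TKO and D1240A, 1 in WT and 2 in F1295A. It gave H3K4me3 over 11.4 kb in TKO, 19.8 kb in WT, 14.2 kb in D1240A and 22.1 kb in F1295A, and H3K27me3 over 10.8 kb in WT, since less of the region is read. With 25 kb around the record, H3K27me3 in WT covered 33.9 kb and 1 gene differed between WT and TKO and between WT and D1240A, through the WT peak between TACC3 and FGFR3. With the stronger 50% of each list, H3K4me3 was at 3 genes in TKO, 4 in WT and 3 in D1240A, over 8.82, 17.2, 11.8 and 18.7 kb in TKO, WT, D1240A and F1295A. Between F1295A and the other forms 3 (TKO), 2 (WT) and 3 (D1240A) genes then differed. NSD2 and NELFA were among them each time, through the F1295A peak in the 3′ part of NSD2 alone. H3K27me3 was at 0 genes and 0 kb in D1240A and F1295A, so 2 genes differed between D1240A and TKO or WT and 0 between D1240A and F1295A. With equal peak numbers, 0 genes differed in H3K4me3 between WT and TKO or D1240A and 1 between WT and F1295A. H3K27me3 was then at 0 genes and 0 kb in TKO, with 2 genes differing from WT, 2 from D1240A and 4 from F1295A. Peaks of at least 1 kb, or leaving out the F1295A peaks in the 3′ part of NSD2 (an alternative chosen after seeing the data), gave H3K27me3 at 2 genes in F1295A and 0 genes differing from TKO, WT or D1240A, and the latter gave both marks at 2 genes in F1295A. Requiring 50% of a peak in the window gave H3K27me3 at 1 gene in TKO, WT and D1240A. Joining peaks within 5 kb, or 2.5 kb around the start, moved no value of the whole set by more than 1.5 times. Joining did so for single genes in TKO, where H3K4me3 became 12.3 kb in the SLBP window (7.62 kb as reported), 13.5 kb at TMEM129 (8.82 kb) and 12.9 kb at TACC3 (8.19 kb). Beyond what a setting itself removes or adds, the cause was not tested. No paired analysis was possible because both H3K27me3 replicates of a form share 1 list and the other antibodies have 1 sample per form, and no replicate could be left out for the same reason.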

Other observations

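Among the 5 genes in the promoter table, those with the most CpG had the start peaks of H3K4me3 lowest in height. The NSD2 start (50 CpG) and, in WT and F1295A only, FGFR3 (40 CpG) stood below the 2nd percentile of their lists by highest signal. SLBP (35), NELFA (34) and TACC3 (22) stood at the 29.1th percentile or above in every form. By total signal the gap to NELFA was smaller. The NSD2 start stood at the 14.0th to the 26.1th percentile, FGFR3 at the 2.49th in WT and the 22.3rd in F1295A, and NELFA at the 28.5th to the 36.3rd. LETM1, which is not in the promoter table, had low peaks too, at the 3.05th to the 17.0th percentile by highest signal. These are few genes chosen by position, and no test was run.

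The lists differed in how many of their peaks had no overlap in any other form. For H3K4me3 these were 240 peaks of F1295A (2.91% of its list), 95 of WT (1.17%), 27 of TKO (0.365%) and 6 of D1240A (0.0778%). For H3K27me3 they were 2161 peaks of TKO (36.7%), 398 of WT (10.5%), 9 of F1295A (0.432%) and 1 of D1240A (0.0457%). The lists differ in length, from 2083 to 5881 peaks for H3K27me3 and from 7396 to 8239 for H3K4me3.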
